A study of Homo sapiens with 7 samples.

Results

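The CCR4-NOT complex is the main cytoplasmic deadenylase, the machine that shortens the poly(A) tails of mRNAs. Its 10 subunit genes (CNOT1, CNOT2, CNOT3, CNOT6, CNOT6L, CNOT7, CNOT8, CNOT9, CNOT10 and CNOT11) were followed by gene symbol in 6 mRNA libraries made from the human colorectal carcinoma line HCT116. All 10 were found among the 15659 gene symbols that the libraries listed, and all 10 passed the filter on low counts that left 8921 genes for testing. The cells of both groups carried a knockout of DROSHA, the nuclear enzyme that starts canonical microRNA processing. The control group (3 libraries) had been transfected with a control miRNA and the other group (3 libraries) with miR-148a-3p, and RNA was taken 48 h later. The labels do not say whether the knockout line is 1 clone, which part of DROSHA was deleted or what the control miRNA is, and no mRNA library of unmodified cells was analysed here. The series' title concerns miR-148a-3p and the RNA helicase DDX6 in myeloid leukemia cells, while these libraries are from a colorectal line.

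CCR4-NOT is built on the long scaffold CNOT1. An Argonaute protein loaded with a microRNA binds a TNRC6 protein, and TNRC6 recruits CCR4-NOT to the target mRNA, partly through CNOT9. The exonucleases CNOT7 or CNOT8 and CNOT6 or CNOT6L then remove the tail, after which the mRNA is decapped and degraded. CNOT1 also binds DDX6, which links the complex to decapping and to repression of translation.

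The transfected microRNA is shown because it is the agent given to one group, and its seed is the part that pairs with target mRNAs. Capitals mark the seed, bases 2 to 8 counted from the 5′ end. The sequence is the RefSeq mature form (gene MIR148A, GRCh38.p14, chromosome 7, 25949922 to 25949943, minus strand). An mRNA that pairs with the whole seed holds the letters UGCACUG. The mRNA sequences of the subunits were not used here, so no target site was looked for.
hsa-miR-148a-3p: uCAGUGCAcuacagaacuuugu

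The libraries held 630142 to 1564125 counts, and the 10 subunits together made up 0.0876% to 0.0942% of them. The smallest and the largest library were both in the miR-148a-3p group. On the first principal component of all tested genes (29.8% of the variance), control library 1 lay at −31.4 and miR-148a-3p library 3 at 34.2, with the other 4 libraries between −8.29 and 13.1. CPM values are counts scaled to a common library size by the TMM method. Of 10 colon epithelium markers 8 were counted (KRT20 and CDX1 were at 0). Among these, CDH1 (1 to 13 reads a library), VIL1 (0 to 2) and LGALS4 (0 to 1) had too few reads to test. The 8 summed to 1719 to 1993 CPM in the control libraries and 1626 to 1806 CPM with miR-148a-3p. Most of that sum was KRT18, whose mean was 1155 ± 107 CPM for the controls and 1040 ± 103 CPM for the miR-148a-3p libraries (SD, n = 3). KRT8 had means of 178 ± 27.3 and 123 ± 30.4 CPM, with a log2 difference of −0.55 (standard error, SE, 0.21; BH-adjusted p = 0.626 with edgeR, where BH stands for Benjamini-Hochberg). CDX2 had means of 39.8 ± 15.6 and 24.3 ± 7.81 CPM, with a log2 difference of −0.68 (SE 0.36; BH-adjusted p = 0.726). KRT19 went the other way, with means of 455 ± 71.4 and 482 ± 7.01 CPM (log2 difference 0.08, SE 0.17). So did EPCAM, with means of 22.4 ± 8.93 and 27.7 ± 9.78 CPM (0.26, SE 0.41). Of the 5 epithelium markers abundant enough to test, 0 passed with edgeR (1, KRT8, was lower at an unadjusted p below 0.05, as were 3.4% of all genes tested), 0 with limma-voom and 0 of 3 with an adjusted p from DESeq2. Of 8 blood cell markers 2 were counted, at 0 to 7.71 CPM in sum in the control libraries and 1.18 to 7.25 CPM with miR-148a-3p; PTPRC, CD34, SPI1, MPO, LYZ and HBB were at 0. Of 8 fibroblast and endothelial markers 4 were counted, with sums of 39.7 to 81.9 and 33.1 to 64.2 CPM, most of it from COL1A1 (58.1 ± 21.3 and 47.8 ± 15.3 CPM; SD, n = 3); COL1A2, DCN, LUM and CDH5 were at 0. The part of these markers in any result was not tested. DROSHA mRNA stood at 22.2 ± 6.60 CPM in controls and 17.4 ± 4.12 CPM after miR-148a-3p (SD, n = 3), which checks no label because the knockout is in both groups.

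The summed level of CCR4-NOT mRNA differed between the groups by less than the spread of the libraries. The 10 subunits summed to 944, 914 and 887 CPM in the controls and to 972, 886 and 932 CPM after miR-148a-3p. The means were 915 ± 28.4 and 930 ± 42.7 CPM (SD, n = 3), a ratio of 1.02, and the groups overlapped. These are bulk libraries, in which fewer cells expressing a gene and less RNA per cell cannot be told apart. No subunit passed the threshold of an adjusted p below 0.05 with edgeR (0 of 10, where 0.0112% of the 8921 genes tested passed, the 1 gene being MORF4L1, a chromodomain protein). With limma-voom 0 of 10 passed, and DESeq2, whose own filter left an adjusted p for 1 of 10, also called 0.

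The fitted log2 fold changes of single subunits ran from −0.56 (CNOT6) to 0.41 (CNOT1). After miR-148a-3p the fitted value was higher for 5 subunits and lower for 5, with a median log2 fold change of −0.01, beside −0.0039 over all genes tested. CNOT6 was the 1 subunit with an unadjusted p below 0.05 (lower, where 3.4% of all genes tested were), and 2 subunits, CNOT1 and CNOT9, were higher in every miR-148a-3p library than in any control library (6.22% of all genes tested were). No subunit was lower in that way, where 6.59% of all genes tested were. The same 2 subunits stood apart with DESeq2 size factors, upper quartile factors and plain library totals.

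**Figure D1:**
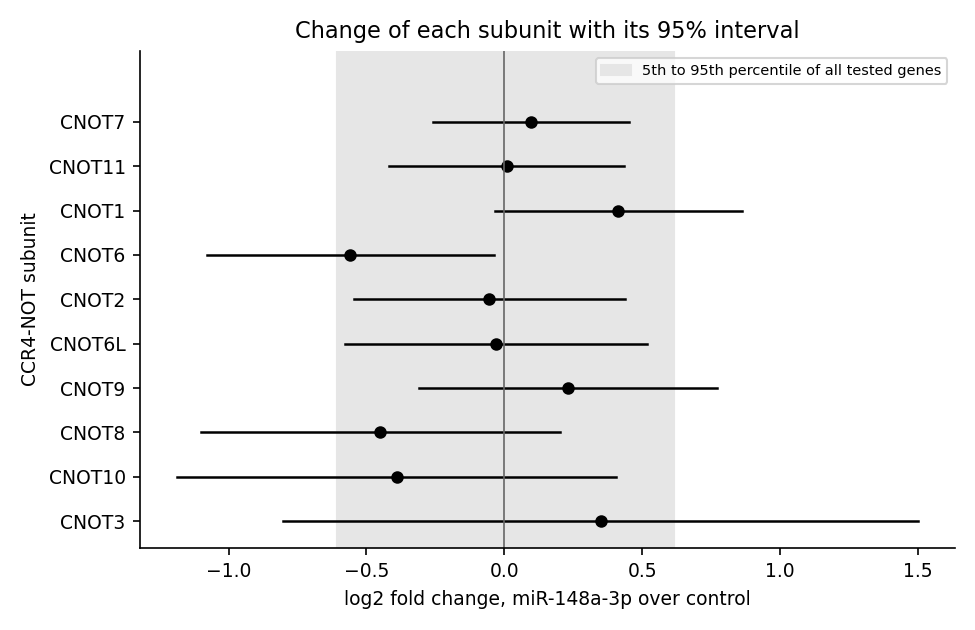
Log2 fold change of each subunit (x axis, miR-148a-3p over control; points) with its 95% interval (lines), in the order of control level from CNOT7 at the top to CNOT3; grey marks the 5th to 95th percentile of all tested genes. All 10 points lie inside the grey band, from −0.56 for CNOT6 to 0.41 for CNOT1, and 9 of 10 intervals include 0.

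The intervals say how large a change these libraries could have missed. For 6 subunits (CNOT1, CNOT2, CNOT6L, CNOT7, CNOT9 and CNOT11) the whole 95% interval lay within a 2-fold change in either direction. For CNOT7 it ran from 0.837 to 1.37 of the control level and for CNOT11 from 0.748 to 1.35. The intervals of CNOT6, CNOT8 and CNOT10 reached below 0.5 of the control level (0.473, 0.466 and 0.440), and that of CNOT3 reached 2.83 times it. The median standard error of the log2 fold change was 0.26 over the subunits and 0.31 over all genes tested.

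CNOT1, the scaffold that every other subunit binds directly or through a partner (chromosome 16, 58519951 to 58629826), was measured at 109, 106 and 80.8 CPM in the control libraries. With miR-148a-3p it was at 137, 110 and 148 CPM. The groups did not overlap, but the lowest miR-148a-3p library (110 CPM) and the highest control library (109 CPM) nearly met. The means were 98.6 ± 15.5 and 132 ± 19.6 CPM (SD, n = 3). The log2 fold change was 0.41 (SE 0.22, 95% interval −0.03 to 0.86), with a BH-adjusted p of 0.726. It lay between 0.29 and 0.53 with 1 library left out. As a share of the complex's own reads, which needs no scaling between libraries, CNOT1 made up 11.5%, 11.6% and 9.10% in the controls and 14.1%, 12.4% and 15.9% after miR-148a-3p, also without overlap. These shares come from the same CNOT1 reads and are not a separate measurement. The RefSeq spans of CNOT1 and SETD6, a lysine methyltransferase gene, overlap by 3892 bases, and whether the authors' counting used strand is not given in the sources used here. SETD6 had 8 to 19 reads a library, and with them added the log2 fold change of CNOT1 was 0.42 (SE 0.21; BH-adjusted p = 0.726).

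CNOT2 and CNOT3 form the NOT module at one end of CNOT1, which supports the complex's assembly and binds regulators of single mRNAs. CNOT2 (chromosome 12, 70243018 to 70354993) was at 92.5, 64.2 and 83.0 CPM in the controls and at 83.0, 80.5 and 65.9 CPM after miR-148a-3p. The miR-148a-3p range lay inside the control range, and the log2 fold change was −0.05 (SE 0.24; BH-adjusted p = 0.978). CNOT3 (chromosome 19, 54137762 to 54155681) had the lowest mean level in both groups, with 5 to 15 reads a library. It was at 8.67, 5.83 and 17.1 CPM in the controls and at 9.23, 11.8 and 21.4 CPM after miR-148a-3p. Library 3 was the highest in both groups, and the log2 fold change of 0.35 had the widest error of all subunits (SE 0.56; BH-adjusted p = 0.934). Without miR-148a-3p replicate 3 it was −0.015. CNOT3 shares 521 bases of its span with LENG1, which had 9 to 41 reads a library, more than CNOT3 in 4 of 6 libraries. With those reads added, the log2 fold change was 0.36 (SE 0.32; BH-adjusted p = 0.881).

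CNOT9, which docks TNRC6 proteins onto the complex (chromosome 2, 218568839 to 218597080), was the other subunit whose groups did not overlap. It was at 52.0, 50.2 and 45.5 CPM in the controls and at 56.7, 58.0 and 59.3 CPM after miR-148a-3p. The values were close together in each group, with a coefficient of variation of 6.82% in the control group and 2.23% with miR-148a-3p. Counting error alone gives 14.9% and 14.1% at these read numbers, so the 3 libraries lay closer than their read numbers would give on average. The log2 fold change was 0.23 (SE 0.26, 95% interval −0.31 to 0.77; BH-adjusted p = 0.904). Its share of the complex's reads was 5.51%, 5.49% and 5.13% in the controls and 5.83%, 6.54% and 6.36% after miR-148a-3p.

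CNOT10 and CNOT11 bind each other and the other end of CNOT1. CNOT11 (chromosome 2, 101252886 to 101270316) was the second most abundant subunit in the control group, at 122, 133 and 117 CPM, against 144, 109 and 119 CPM with miR-148a-3p. Its means, 124 ± 8.08 and 124 ± 18.4 CPM (SD, n = 3), gave a log2 fold change of 0.01 (SE 0.21; BH-adjusted p = 0.996). CNOT10 (chromosome 3, 32685188 to 32773875) was at 22.2, 29.2 and 28.4 CPM in the controls and at 25.0, 20.1 and 13.2 CPM after miR-148a-3p. The lowest value, in miR-148a-3p library 3, rests on 8 reads. The groups overlapped, and the log2 fold change was −0.39 (SE 0.39; BH-adjusted p = 0.887). Without miR-148a-3p replicate 3 it was −0.21, and without miR-148a-3p replicate 1 −0.64. CNOT11 held 80.5% to 84.7% of the reads of the pair in the control libraries and 84.4% to 90.0% with miR-148a-3p.

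CNOT7 and CNOT8 are paralogues of the DEDD nuclease family. Either can take the same place on CNOT1, and either can hold CNOT6 or CNOT6L in the complex. CNOT7 (chromosome 8, 17224966 to 17246857) was the most abundant subunit in all 6 libraries, at 347, 335 and 304 CPM in the controls and 360, 364 and 329 CPM after miR-148a-3p. It was also the most precisely measured, from 200 to 546 reads a library, with a log2 fold change of 0.10 (SE 0.17; BH-adjusted p = 0.939). CNOT8 (chromosome 5, 154858249 to 154876792) was at 34.7, 43.2 and 53.5 CPM in the controls and 32.3, 24.8 and 39.5 CPM after miR-148a-3p. The groups overlapped through miR-148a-3p library 3, which lay above control library 1. The log2 fold change was −0.45 (SE 0.32; BH-adjusted p = 0.807), and −0.28 without control replicate 3. CNOT7 held 90.9%, 88.6% and 85.0% of the reads of the pair in the controls and 91.8%, 93.6% and 89.3% after miR-148a-3p. The pair summed to 372 ± 13.1 CPM in controls and 383 ± 12.7 CPM after miR-148a-3p (SD, n = 3).

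CNOT6 and CNOT6L are paralogues of the other nuclease family, related to yeast Ccr4, and are alternatives to each other in the complex. CNOT6 (chromosome 5, 180494379 to 180578358) had the smallest p of the 10 subunits. It was at 80.9, 100 and 102 CPM in the controls and at 68.5, 42.6 and 82.3 CPM after miR-148a-3p, so that miR-148a-3p library 3 lay above control library 1 and the groups overlapped. The means were 94.5 ± 11.9 and 64.5 ± 20.2 CPM (SD, n = 3). The log2 fold change was −0.56 (SE 0.25, 95% interval −1.08 to −0.04), with a BH-adjusted p of 0.725. Of all genes tested, 12.8% had a log2 fold change at least as far from 0. The value rested in part on miR-148a-3p replicate 2, with 36 reads. It was −0.34 without that library (BH-adjusted p = 0.955). Dropping miR-148a-3p library 3 gave −0.73 (BH-adjusted p = 0.998), and dropping control library 1 gave −0.67 (BH-adjusted p = 0.433).

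CNOT6L (chromosome 4, 77713387 to 77820269) was at 75.1, 46.7 and 55.7 CPM in the controls and at 55.4, 65.1 and 54.3 CPM after miR-148a-3p. The miR-148a-3p range again lay inside the control range, with a log2 fold change of −0.03 (SE 0.27, 95% interval −0.58 to 0.52; BH-adjusted p = 0.992). CNOT6 held 51.9%, 68.3% and 64.7% of the reads of the pair in the controls and 55.3%, 39.6% and 60.2% after miR-148a-3p. For control library 1 the Wilson 95% interval ran from 44.2% to 59.4% and for miR-148a-3p library 2 from 30.1% to 49.8%. These intervals cover counting error only. CNOT6L was thus the more abundant paralogue in 1 library of 6, miR-148a-3p library 2. The summed level of the pair was 156, 147 and 158 CPM in the controls and 124, 108 and 137 CPM after miR-148a-3p, without overlap, a ratio of the means of 0.798. That sum was looked at after the single values were known and has no test. The difference in response between the paralogues was not tested.

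**Figure D2:**
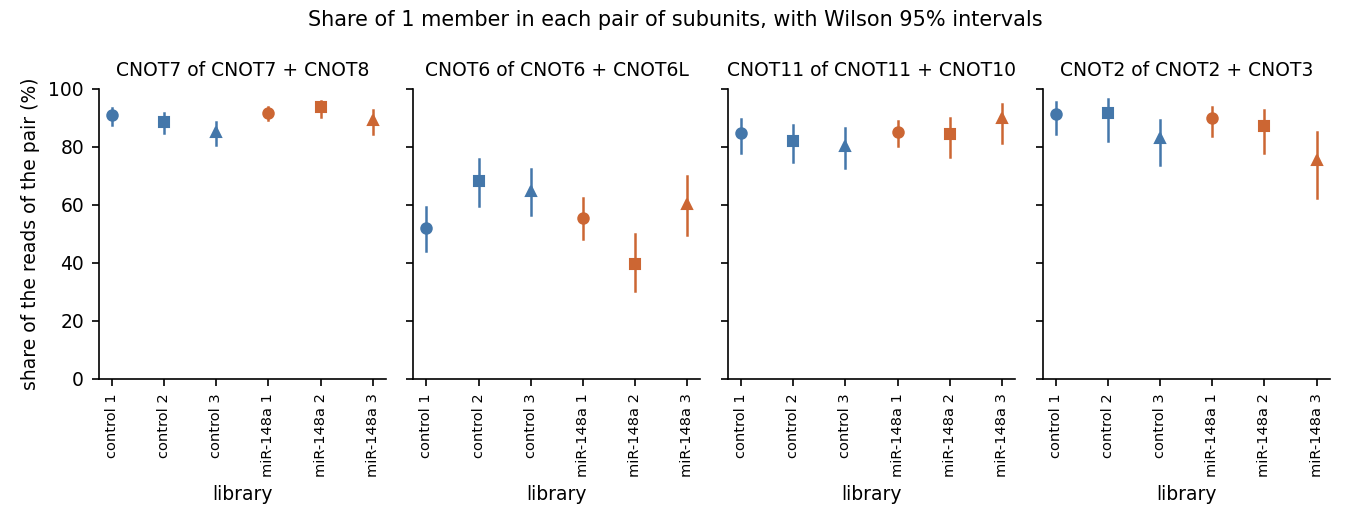
Share of 1 member in the reads of each of 4 pairs of subunits (y axis, %), by library (x axis; blue control, orange miR-148a-3p), with Wilson 95% intervals as lines. CNOT7 holds 85.0% to 93.6% of its pair in all 6 libraries, while CNOT6 ranges from 39.6% to 68.3%; the groups overlap in the CNOT7, CNOT6, CNOT11 and CNOT2 panels.

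The subunits were far from equal in mRNA level. Reads were primed at the poly(A) tail, so that their number does not follow transcript length, and CPM can be set side by side between genes, apart from differences in how well each 3′ end is captured. In the control group CNOT7 was at 31.2 times the level of CNOT3, 7.50 times that of CNOT8, and CNOT11 was at 4.67 times that of CNOT10. By control level the order was CNOT7 (328 CPM), CNOT11 (124), CNOT1 (98.6), CNOT6 (94.5), CNOT2 (79.9), CNOT6L (59.2), CNOT9 (49.2), CNOT8 (43.8), CNOT10 (26.6) and CNOT3 (10.5). Of the 9 neighbouring pairs in that order, 5 overlapped over the control libraries. The 4 that did not were CNOT7 above CNOT11, CNOT11 above CNOT1, CNOT8 above CNOT10 and CNOT10 above CNOT3. Thus CNOT1, CNOT6, CNOT2, CNOT6L, CNOT9 and CNOT8 formed a stretch in which no neighbours were separated by more than the spread of the libraries.

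With miR-148a-3p the order changed only by swaps between neighbours. CNOT1 (132 CPM) stood above CNOT11 (124), and CNOT2 (76.5) above CNOT6 (64.5), and both of these pairs overlapped over the libraries. CNOT7 stayed first and CNOT8, CNOT10 and CNOT3 last. CNOT11 and CNOT1, CNOT8 and CNOT10, and CNOT10 and CNOT3 stood apart in controls but not with miR-148a-3p, while CNOT9 and CNOT8 did the reverse. Among all tested genes, CNOT7 was at percentile 94.4 of control level and CNOT3 at percentile 2.21, close to the filter on low counts.

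**Figure D3:**
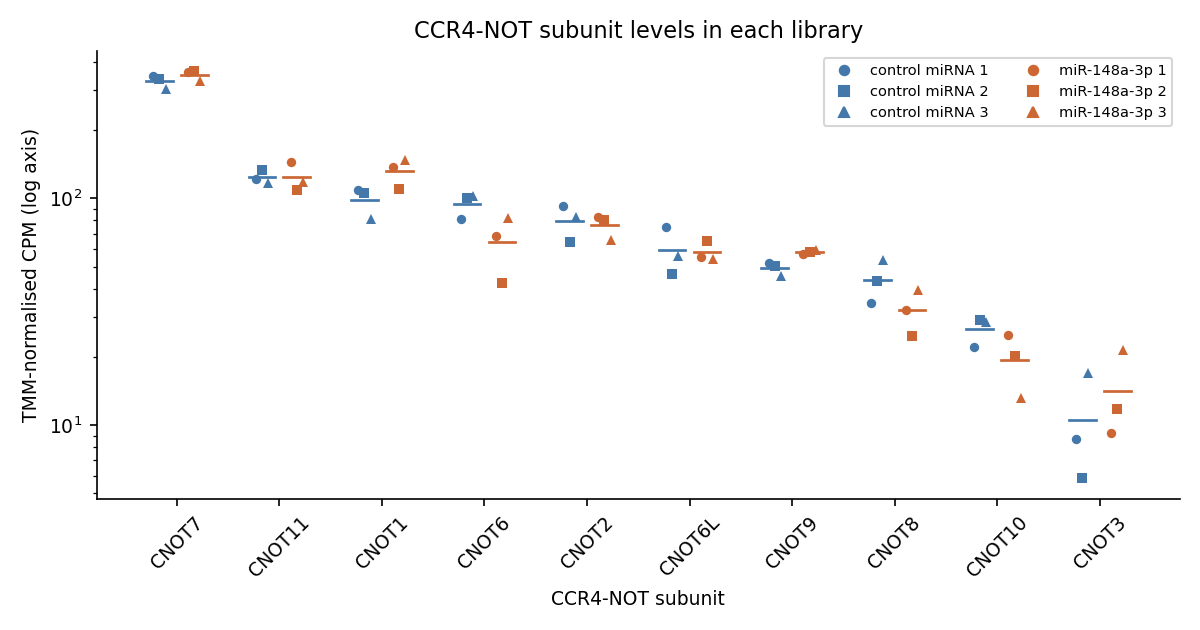
TMM-normalised CPM of each subunit (y axis, log scale) in the 3 control (blue) and 3 miR-148a-3p (orange) libraries; symbols mark the replicate and bars the group mean. CNOT7 lies between 304 and 364 CPM in every library and CNOT3 between 5.83 and 21.4 CPM; orange points lie above all blue ones for CNOT1 and CNOT9.

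More than 1 read in 3 of the complex came from CNOT7. It contributed 35.9% ± 1.42 of them in the control group and 37.8% ± 2.97 with miR-148a-3p, and CNOT11 contributed 13.6% ± 0.862 and 13.3% ± 1.38 (SD, n = 3). The 4 nucleases together summed to 526 ± 11.1 CPM in controls and 506 ± 9.61 CPM after miR-148a-3p (SD, n = 3). Within a group, the coefficient of variation of single subunits ran from 2.23% (CNOT9, miR-148a-3p) to 55.5% (CNOT3, control). Relative to counting error the widest spread was that of CNOT6 with miR-148a-3p, at 31.3% where its read numbers alone give 13.8%.

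**Figure D4:**
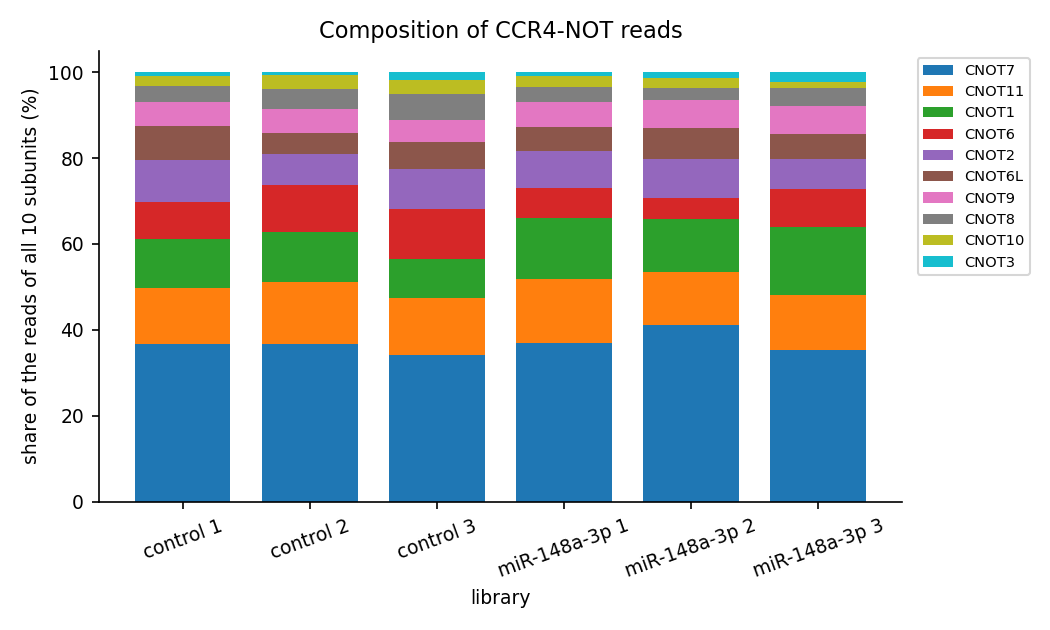
Share of each subunit in the reads of all 10 subunits (y axis, %), in each of the 6 libraries (x axis), stacked from CNOT7 at the bottom to CNOT3 at the top. CNOT7 makes up 34.2% to 41.1% in every library, and CNOT6 ranges from 4.81% (miR-148a-3p library 2) to 11.5% (control library 3).

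Among the proteins that work with the complex, 0 of 7 tested genes passed the edgeR threshold (0 at an unadjusted p below 0.05), and 5 had a lower fitted value (median log2 fold change −0.01). Over all genes tested 0.0112% passed, 50.5% were lower, and 3.4% in each direction had an unadjusted p below 0.05. By limma-voom 0 of the 7 passed, and by DESeq2 0 of the 1 to which it gave an adjusted p. CNOT4, a ubiquitin ligase named for its yeast counterpart, is in human cells not a stable subunit, and it is the 1 other symbol starting with CNOT in the files. It was at 39.6 ± 6.62 CPM in controls and 39.6 ± 5.60 CPM after miR-148a-3p (SD, n = 3). TOB1 is an antiproliferative adaptor that brings CNOT7 or CNOT8 to mRNAs. It was lower in all 3 miR-148a-3p libraries than in any control library, as were 6.59% of all genes tested. Its means were 55.4 ± 6.24 and 37.6 ± 4.16 CPM (SD, n = 3). The log2 change of TOB1 was −0.54 (SE 0.28; BH-adjusted p = 0.726). BTG1, of the same family, had −0.33 (SE 0.21) and BTG3 −0.13 (SE 0.22).

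Among the factors that recruit CCR4-NOT to mRNAs (Argonaute, TNRC6, Pumilio, ZFP36, NANOS, Roquin, SAMD4, CPEB and YTHDF2 genes), 18 of 24 were tested. The fitted value was lower for 15 of these and higher for 3, with a median of −0.14, beside 50.5% lower over all genes tested. None passed with edgeR (0 of 18, and 0 at an unadjusted p below 0.05), with limma-voom (0 of 18) or with DESeq2 (0 of 5 with an adjusted p). Of all genes tested, 0.0112% passed with edgeR, and 3.4% in each direction had an unadjusted p below 0.05. TNRC6B, a scaffold that binds both Argonaute and CCR4-NOT, was at 308 ± 72.8 and 236 ± 23.5 CPM (SD, n = 3), a log2 difference of −0.38 (SE 0.19). RC3H2, a Roquin protein of stem-loop decay, had −0.39 (SE 0.24) and AGO1 −0.34 (SE 0.26). AGO2, the Argonaute best known for slicing perfectly paired targets, was at 353 ± 83.2 and 355 ± 30.0 CPM (SD, n = 3). ZFP36L1 was at 1505 ± 114 and 1368 ± 89.1 CPM (−0.14, SE 0.16). It was lower without overlap, as were 6.59% of all genes tested.

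Of 9 other deadenylases only 4 were abundant enough to test. PAN3, the adaptor of the PAN2 nuclease, was at 32.8 ± 17.8 and 19.7 ± 4.23 CPM (SD, n = 3), a log2 difference of −0.71 (SE 0.41). ANGEL2, a relative of CNOT6, was higher in every miR-148a-3p library than in any control library, as were 6.22% of all genes tested. It was at 15.1 ± 4.82 and 25.6 ± 5.55 CPM (0.76, SE 0.43). PARN was at 51.0 ± 16.1 and 54.0 ± 11.4 CPM and PDE12, a mitochondrial deadenylase, at 59.2 ± 18.6 and 51.5 ± 10.8 CPM (SD, n = 3). None of the 4 passed with edgeR or limma-voom, none had an unadjusted p below 0.05 with edgeR, and DESeq2 gave an adjusted p for none of them. Of all genes tested, 0.0112% passed with edgeR, and 3.4% in each direction had an unadjusted p below 0.05. In the control group each of the 4 was below CNOT6 (94.5 CPM) and CNOT7 (328 CPM) in mean level.

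The next list held poly(A)-binding proteins, which coat the tail that CCR4-NOT removes, and their partners PAIP1 and PAIP2. All 5 tested genes had a lower fitted value (median −0.13), beside 50.5% over all genes tested. For PABPC1 (−0.0012) and PAIP1 (−0.032) that value was close to 0. None passed with edgeR (0 of 5, and 0 at an unadjusted p below 0.05), with limma-voom (0 of 5) or with DESeq2 (0 of 3 with an adjusted p). Over all genes tested 0.0112% passed with edgeR, and 3.4% in each direction had an unadjusted p below 0.05. PAIP2, which binds and restrains PABPC1, was at 254 ± 78.5 and 213 ± 41.0 CPM (SD, n = 3), a log2 difference of −0.24 (SE 0.21). PABPC1L, a relative of PABPC1 known from oocytes, was at 17.5 ± 6.31 and 12.7 ± 5.71 CPM (−0.38, SE 0.49). PABPC1, the main cytoplasmic one, was at 7512 ± 806 and 7506 ± 395 CPM, and PABPC4 at 1070 ± 153 and 977 ± 44.1 CPM (SD, n = 3).

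Downstream of the tail, the decapping genes had log2 fold changes from −0.75 (DDX6) to 0.99 (DCPS). Of 20 tested, 10 were lower and 10 higher (median 0.04), and 0 passed with edgeR, where 0.0112% of all genes tested did. An unadjusted p below 0.05 was found for 4, 2 lower and 2 higher, and for 3.4% of all genes tested in each direction. With limma-voom 0 of the 20 passed, and with DESeq2 0 of 3 that had an adjusted p. DDX6, the helicase that CNOT1 binds and the series' title names, was at −0.75 on the log2 scale (SE 0.21; BH-adjusted p = 0.322), beside 0.41 for CNOT1. It was at 199, 166 and 168 CPM in the controls and 94.9, 133 and 90.5 CPM after miR-148a-3p, so the groups did not overlap. Of all genes tested, 6.59% were lower in that way. EDC4, a decapping scaffold, had −0.71 (SE 0.32), DCPS, which degrades the freed cap, 0.99 (SE 0.41), and LSM7, of the ring that binds shortened tails, 0.49 (SE 0.23). EDC4 was also lower without overlap. DCPS and LSM7 were higher without overlap, as were 6.22% of all genes tested. LSM7 was not among the genes chosen by rule and is named because it was the fourth with an unadjusted p below 0.05.

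**Figure D5:**
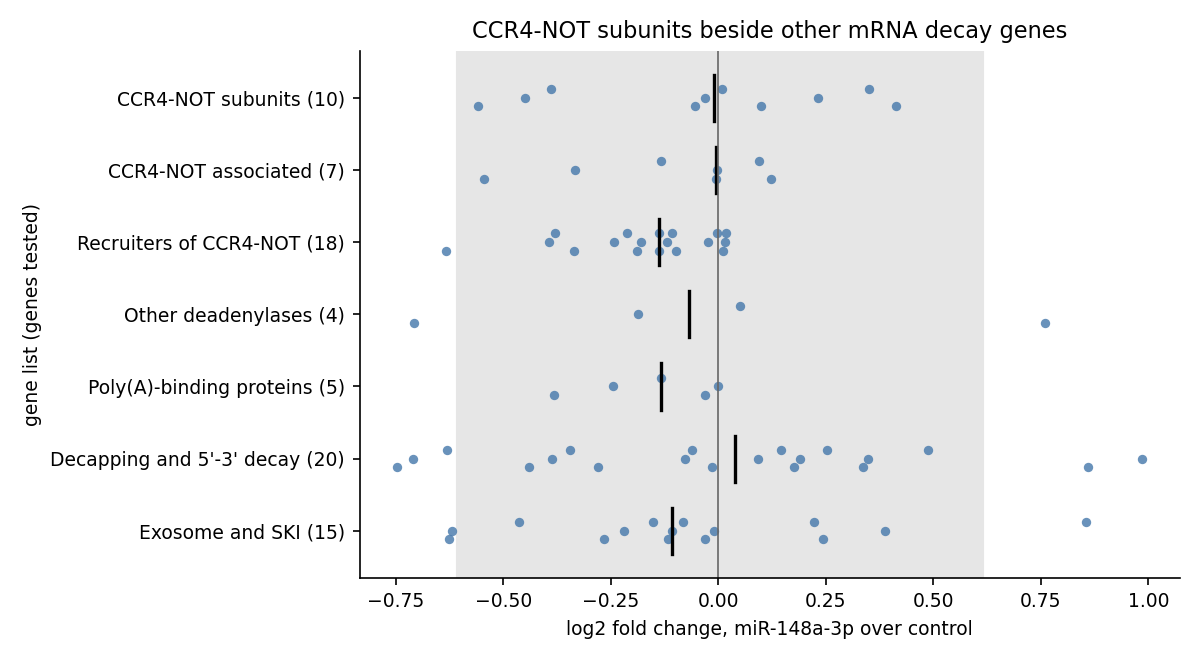
Log2 fold change (x axis, miR-148a-3p over control) of each tested gene (points) in 7 lists of mRNA decay genes, with the median of each list as a black bar and the 5th to 95th percentile of all tested genes in grey. The 10 CCR4-NOT subunits lie between −0.56 and 0.41, inside the grey band. In the decapping list DDX6 (−0.75), EDC4 (−0.71), EDC3 (−0.63), DCP1B (0.86) and DCPS (0.99) lie outside it. So do some genes of the recruiter, other deadenylase and exosome lists.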

How the data were processed

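Each file the authors deposited lists whole, unnormalized read counts by gene symbol for 1 library. Per the labels' protocols, a 3′ mRNA kit with oligo-dT primers was used on 500 ng of RNA. Per the submitters' processing notes, cutadapt, STAR, Bowtie2 and GRCh38 were used. Their roles and versions, how reads were counted, on which annotation and whether by strand is not given in the sources used here. Genes missing from a library's list were read as 0. Nothing in the labels says that replicates came from separate cultures; the p-values then reflect only the spread among these libraries, possibly a technical one. No 2 libraries of a group agreed within sampling noise (chi-square per degree of freedom 2.58 to 5.80), so all were kept.

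The test was the quasi-likelihood F test of edgeR 4.0.16 (R 4.3.3), with TMM, filterByExpr (minimum count 10) and no covariate beside group. Benjamini-Hochberg (BH) adjustment ran over 8921 genes, with a threshold of 0.05. The standard error (SE) is the absolute log2 fold change over the square root of F, and 95% intervals use the t distribution. With 3 libraries against 3, the smallest two-sided p of an exact permutation test is 0.1, and none was run. Alternatives were DESeq2 1.42.0, limma-voom (limma 3.58.1), other size factors and filters, a replicate block, thinning to 630142 counts and leaving out each library. Adding the reads of SETD6 or LENG1 was chosen after seeing the data.

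The subunits and the 10 gene lists were chosen with earlier results of these data known. The rule for named genes took all subunits, DDX6, DROSHA, any gene past the threshold, any other CNOT symbol, and up to 3 genes with the smallest p in each list. Any other gene was picked for mention with its values known. Gene positions are RefSeq spans (GRCh38.p14). The SKI genes SKIC2, SKIC3 and SKIC8 were matched by the older symbols SKIV2L, TTC37 and WDR61. The small RNA library holds none of these genes and was not used.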

Additional observations from a re-analysis of the deposited data

How the results depend on the processing

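With edgeR, limma-voom and DESeq2, and in all 14 alternatives, 0 of the 10 subunits passed, with adjusted p from 0.433 to 1.00 (9 adjusted p-values of DESeq2 were missing and are not counted). Of 140 log2 fold changes, 129 kept their direction and 11, of CNOT2, CNOT3, CNOT6L and CNOT11, changed sign. For CNOT11 (0.01) it was −0.00020 without the count filter and −0.0024 with the replicate block, and −0.13 to 0.10 with 1 library left out. The leave-one-out range was −0.19 to 0.068 for CNOT2 (also 0.031 without miR-148a-3p replicate 3), −0.17 to 0.18 for CNOT6L and −0.015 to 0.88 for CNOT3. CNOT1, CNOT6, CNOT7, CNOT8, CNOT9 and CNOT10 kept their direction in all 14.

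Over all genes, where edgeR called 1, DESeq2 called 7, limma-voom 3, edgeR without the count filter 18, with at least 1 CPM in 3 libraries 4, and after thinning 2. Leaving out 1 library gave 1 to 26 genes, with 26 without control replicate 1 and 2 without miR-148a-3p replicate 3; the cause was not tested. With the replicate block 3 were called. The replicate numbers were not taken as pairs, since the correlation of deviations between same-numbered libraries was 0.133, 0.0930 and −0.00185, and control replicate 3 did not correlate best with its own number. With DESeq2 size factors the group levels of the 10 subunits and their sum moved by less than 1 SD. With 1 library left out, the sum of the 10 was 900 to 929 CPM in controls and 909 to 952 CPM with miR-148a-3p. The CNOT7 share of CNOT7 plus CNOT8 reads was then 86.8% to 89.7% and 90.5% to 92.7%, and the CNOT6 share of CNOT6 plus CNOT6L reads 58.3% to 66.5% and 47.4% to 57.8%. The other sums and shares were not recomputed in this way. Read numbers limit CNOT3 (5 to 15 reads) and CNOT10 (8 to 38 reads) most.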

Other observations

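The exosome and the SKI complex degrade deadenylated mRNA from the 3′ end. Of 16 such genes 15 were tested, 11 with a lower and 4 with a higher fitted value with miR-148a-3p (median log2 fold change −0.11), and 0 passed with edgeR, with 1 at an unadjusted p below 0.05 (limma-voom 0 of 15, DESeq2 0 of 1 with an adjusted p). Over all genes tested 0.0112% passed with edgeR, 50.5% were lower, and 3.4% in each direction had an unadjusted p below 0.05. That gene was EXOSC2, a cap subunit of the exosome, at 23.0 ± 7.76 CPM in controls and 41.6 ± 13.9 CPM after miR-148a-3p (SD, n = 3, log2 fold change 0.85, SE 0.36; BH-adjusted p = 0.681). EXOSC9, a subunit of the exosome ring, was higher in every miR-148a-3p library than in any control library, as were 6.22% of all genes tested. It was at 118 ± 12.5 and 156 ± 22.4 CPM (0.39, SE 0.21, BH-adjusted p = 0.726). DIS3 (−0.27, SE 0.23) and TTC37 (SKIC3, −0.46, SE 0.32) were lower without overlap, as were 6.59% of all genes tested. WDR61 (SKIC8), a SKI subunit, was at 29.8 ± 9.72 and 19.2 ± 2.85 CPM (−0.63, SE 0.39).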
